A study of Mus musculus with 6 samples.

Results

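The reads described here are Ago-bound miRNA reads of 24 nt or more, which are longer than most mature miRNAs. They were chosen as the unique sequences above 0 in at least 1 of 6 mouse brain samples that carry a miRNA name in the deposited table and are 24 to 30 nt long. There were 4532 such sequences among 65087 in all, or 24.8% of the 18305 sequences with a miRNA name, and the longest was 29 nt. They belonged to 400 of 782 mature miRNA names.

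The 6 samples were 3 control mice, called WT, and 3 mice with a Tau fragment transgene, called Tau tg. Per the study, the transgene was the human tau45-230 cDNA behind the Thy 1.2 promoter, which is active mainly in neurons, and all mice were 3-month-old males on the C57BL/6J background. The labels named the hippocampus and the deposited protocol the cortex together with the hippocampus. Ago proteins, which hold the guide RNAs of the RNA-induced silencing complex (RISC), were pulled down with a GW182 peptide, and the RNA they held was cut from a gel by size and sequenced, so the longest and shortest forms may be under-sampled to an extent that was not tested. The table held no measurement of the transgene, so genotypes were not checked.

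A mature miRNA is cut from a hairpin by the nucleases Drosha and Dicer, and the position of each cut can shift by a few bases. A read can therefore run past the annotated 3′ end because the cut lay further along the hairpin, and such an addition is called templated here. Enzymes can also add bases that the hairpin does not hold: TUT4 and TUT7 add U, and GLD2 adds A. Tails of this kind are known to mark some miRNAs for trimming or decay, among them miRNAs bound to highly complementary targets, a process called target-directed miRNA degradation. A base that equals the next base of the hairpin cannot be told apart from the same base added by an enzyme, and such reads were counted as templated.

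The mature sequences below, from RefSeq on build GRCm38.p6, belong to the miRNAs that most results turn on, and they are shown first by shared seed, with bases 2 to 8 in capitals. The seed pairs with target mRNAs.
miR-30a-5p: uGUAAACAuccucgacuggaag
miR-30c-5p: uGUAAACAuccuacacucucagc
miR-30e-5p: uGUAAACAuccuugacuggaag
miR-181a-5p: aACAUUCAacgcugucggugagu
miR-181c-5p: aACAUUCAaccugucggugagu
miR-181d-5p: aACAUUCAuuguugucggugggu
miR-221-3p: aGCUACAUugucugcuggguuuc
miR-222-3p: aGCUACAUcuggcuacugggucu
miR-138-5p: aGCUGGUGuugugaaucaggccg
let-7b-5p: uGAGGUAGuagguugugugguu
miR-29b-3p: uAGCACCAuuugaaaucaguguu
miR-451a: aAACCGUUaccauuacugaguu

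The next lines give the extended reads that show each kind of 3′ end, with the bases past the RefSeq mature end in capitals. The first 10 follow the hairpin, and the other 8 end in bases that the hairpin does not hold.
miR-30c-5p, U added: uguaaacauccuacacucucagcU
miR-30e-5p, CU added: uguaaacauccuugacuggaagCU
miR-30a-5p, CU added: uguaaacauccucgacuggaagCU
miR-153-3p, AU added: uugcauagucacaaaagugaucAU
miR-222-3p, C added: agcuacaucuggcuacugggucuC
miR-138-5p, U added: agcugguguugugaaucaggccgU
miR-138-5p, A added: agcugguguugugaaucaggccgA
miR-181a-5p, UU added: aacauucaacgcugucggugaguUU
miR-342-3p, C added: ucucacacagaaaucgcacccguC
miR-451a, UAGU added: aaaccguuaccauuacugaguuUAGU
miR-221-3p, U added: agcuacauugucugcuggguuucU
miR-21a-5p, CA added: uagcuuaucagacugauguugaCA
let-7b-5p, AU added: ugagguaguagguugugugguuAU
let-7b-5p, UU added: ugagguaguagguugugugguuUU
miR-29b-3p, A added: uagcaccauuugaaaucaguguuA
miR-26a-5p, AU added: uucaaguaauccaggauaggcuAU
miR-138-5p, UUU added: agcugguguugugaaucaggccgUUU
miR-210-3p, AU added: cugugcgugugacagcggcugaAU

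A RefSeq mature sequence was found for 663 of the 782 names. For the names without one, among them miR-23b-3p, miR-30d-5p and miR-124-3p, levels are given without a sequence or a templated share. The mature miR-30c-5p lies at chr4:120769584-120769606 on the minus strand, in an intron of Nfyc, and at chr1:23291714-23291736 on the plus strand, in an exon of the lincRNA Gm27028 (GENCODE M21). The mature miR-30e-5p lies at chr4:120772660-120772681, also in an intron of Nfyc. The miR-138-5p copies lie at chr9:122682898-122682920, in an exon of the pseudogene Gm47135, and at chr8:94324312-94324334, in an exon of the lincRNA C78859, both on the plus strand. The miR-222-3p at chrX:19146901-19146923 and the miR-221-3p at chrX:19146307-19146329 lie on the minus strand outside any other annotated gene.

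Extended reads were a small part of the Ago-bound miRNAs. They made up 3.57%, 3.48% and 3.74% of miRNA reads in the WT samples and 3.36%, 4.07% and 4.08% in the Tau tg samples. Tau tg samples held both the lowest and the highest value, so the groups overlapped. WT averaged 3.60% ± 0.129 and Tau tg 3.84% ± 0.415 (SD, n = 3 each), a difference of 0.242 percentage points (exact two-sided permutation test, p = 0.4). With 3 samples against 3, this test cannot give a p below 0.1. The shares rested on 30837 to 213511 extended reads per sample, and their 95% Wilson intervals were at most 0.0409 percentage points to either side, which covers counting error only. The difference between samples of 1 group was thus larger than counting error.

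Most of these reads were just over the limit. Reads of 24 nt were 3.03% ± 0.136 of miRNA reads in WT and 3.23% ± 0.344 in Tau tg, and reads of 25 nt were 0.460% ± 0.00402 and 0.501% ± 0.0528 (SD, n = 3 each). Reads of 26 nt came to 0.0844% ± 0.00333 in WT and 0.0901% ± 0.0201 in Tau tg, and longer ones were rarer still. None of the 5 lengths tested passed between the groups, with the lowest adjusted p at 0.667 by the exact permutation test. Just below the limit, reads of 23 nt are the usual form of many miRNAs, and a limit of 23 nt took in 22.04% ± 1.77 of miRNA reads in WT.

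Since the choice was by length, the annotated length of a miRNA set how many bases it had to gain. Extended reads were 0.770% ± 0.121 of the reads of miRNAs with a mature length of 21 nt, 2.31% ± 0.251 at 22 nt, 9.15% ± 0.690 at 23 nt, 16.6% ± 2.54 at 24 nt and 32.2% ± 6.57 at 25 nt (SD, n = 6). The order did not hold below 21 nt: at 20 nt the share was 3.85% ± 2.14, above those at 21 and 22 nt. The neuronal miR-128-3p shows the other side of this. Its mature form has 21 nt, and reads with a U added past its end averaged 5698 RPM ± 1934 (SD, n = 6; RPM, reads scaled by the sample's total), yet these have 22 nt and are not among the extended reads. Counted over all lengths, reads with at least 1 base past the RefSeq 3′ end were 19.8% ± 2.41 of miRNA reads in WT and 19.7% ± 1.90 in Tau tg, 0.0692 percentage points apart with the sign turned (Tau tg minus WT -0.0692; exact permutation test, p = 1).

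The 5′ end was fixed in most extended reads and the length came from the 3′ end. Over the 6 samples, 99.6% ± 0.0501 of extended reads could be placed on a mature sequence with at most 1 mismatch. Among them 90.2% ± 1.21 began at the first base of the mature miRNA and 8.83% ± 1.16 began before it (SD, n = 6). The next shares are of reads placed on a RefSeq mature sequence, which were 86.6% ± 1.78 of extended reads. Reads with 1 base past the 3′ end were 41.3% ± 1.35, with 2 bases 39.7% ± 0.863, and with 3 bases 6.05% ± 0.612. Those with 4 bases were 0.847% ± 0.152 and those with 5 bases 0.137% ± 0.0893. A further 11.9% ± 1.82 did not pass the annotated 3′ end. These were 6.65% ± 1.32 from miRNAs whose mature form already has 24 nt or more, and 5.22% ± 0.912 longer at the 5′ end only. The main miRNA of the first kind was miR-125a-5p, with a mature form of 24 nt and 99.2% of its extended reads not past the end. These reads are extended by length only.

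Of RefSeq-placed reads that passed the end, the first added base was U in 49.3% ± 3.72, A in 23.1% ± 2.57, C in 22.6% ± 2.78 and G in 5.03% ± 0.312 (SD, n = 6). Where the hairpin could be read, 58.8% ± 3.35 of additions followed it throughout. U alone was 45.4% ± 3.75 of these templated additions, CU 15.6% ± 1.38 and C 10.8% ± 2.71. Among the additions that left the hairpin, the part after the last hairpin base was U in 32.5% ± 2.52, A in 24.2% ± 3.17, AU in 14.5% ± 3.004, AA in 8.41% ± 1.70 and UU in 6.89% ± 1.32. Tails made of A and U only were 92.6% ± 1.17, and tails with a G or C were 7.37% ± 1.17. A tail of 1 base made up 60.2% ± 4.51 of non-templated tails, and a tail of 2 bases 34.7% ± 3.999.

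The arms of the hairpin differed in level and in the source of the added bases, given as a description. Extended reads were 4.20% ± 0.338 of the reads of 5p arms and 3.14% ± 0.293 of 3p arms (SD, n = 6). Additions were templated in 65.8% ± 3.21 of 5p reads and in 45.0% ± 7.19 of 3p reads. Of all extended reads, 61.2% ± 2.49 came from a 5p arm. The last bases of a 3p arm lie at the Drosha cut and those of a 5p arm at the Dicer cut.

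A few miRNAs held a large share of the extended reads. The 10 with the highest extended level carried 48.6% ± 0.690 of them (SD, n = 6). Reads with the seed GUAAAC (read positions 2 to 7), that of the miR-30 5p arms, were 19.5% of the mean extended level, those with the miR-221-3p and miR-222-3p seed GCUACA 8.70%, and those with the miR-181 seed ACAUUC 7.32%.

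The miR-30 family, widely expressed regulators of differentiation, led the list. The extended level of miR-30c-5p was 3537, 2854 and 3127 RPM in WT, against 4413, 3576 and 4211 RPM in Tau tg. The Tau tg samples were all above the WT samples, while the log2 difference of 0.36 ± 0.22 (SE) had a limma adjusted p of 0.859 over 323 miRNAs. Extended reads were 41.1% ± 5.27 of all miR-30c-5p reads (SD, n = 6), from 35.5% to 50.2%, and 95.8% of its additions followed the hairpin, which goes on with UGUGAG or UGUGAA. The single sequence with U added, printed above, was the most abundant extended read of all, at 3340 RPM ± 580.2, against 55.4 RPM for the read with A in its place.

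Members of this family with the same seed differed widely in how much was extended. The share was 21.6% ± 3.93 for miR-30e-5p, 17.8% ± 3.13 for miR-30a-5p, 13.9% ± 3.07 for miR-30d-5p and 0.758% ± 0.299 for miR-30b-5p (SD, n = 6). The ranges of miR-30e-5p and miR-30a-5p overlapped, at 16.8 to 27.8% and 13.9 to 23.1%, though miR-30e-5p was higher in each sample except WT 3. The range of miR-30b-5p, 0.188 to 0.981%, lay below those of the other 4. Extended miR-30e-5p and miR-30a-5p reads ended mostly in CU, the next bases of both hairpins, with 90.0% and 91.8% of additions templated. Their mature forms have 22 nt, so 2 bases were needed to reach 24 nt, while miR-30c-5p needed 1.

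The brain miRNA miR-138-5p, known for its role in dendritic spines, came second. Its extended level was 1691, 1985 and 1109 RPM in WT, against 1721, 1857 and 3066 RPM in Tau tg, with overlap between the groups and a limma adjusted p of 0.859. Its share was 20.6% ± 5.96 (SD, n = 6). The 2 gene copies differ right after the mature end, where Mir138-1 goes on with UUGCCA and Mir138-2 with ACGAGC. The read with U added averaged 819 RPM ± 320.5 and the read with A added 425 RPM over the 6 samples. In WT 1 the A form was above the U form, at 630 against 568 RPM, and in the other 5 samples the U form was higher. A U or an A at this place can thus come from a hairpin, and 85.1% of additions to miR-138-5p were templated.

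miR-23b-3p, known from astrocytes and vessels, was also among the 10 miRNAs with the highest extended level, with 1550, 1237 and 992 RPM in the WT samples and 1147, 1719 and 844 RPM in the Tau tg samples. The groups overlapped (limma adjusted p = 0.955). Its share was 12.9% ± 2.73, against 1.49% ± 0.450 for its paralog miR-23a-3p (SD, n = 6), whose mature form has 21 nt.

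The neighbouring genes of miR-221-3p and miR-222-3p, which share a seed and are abundant in vessels and glia as well as neurons, were extended in different ways. The extended share of miR-222-3p was 16.1%, 15.3% and 11.3% in WT and 10.1%, 14.3% and 11.0% in Tau tg, and that of miR-221-3p was 7.41%, 6.48% and 9.91% in WT and 6.11%, 5.34% and 8.11% in Tau tg. In each sample miR-222-3p had the higher share. The hairpin of Mir222 goes on with CUGGUG, and its most abundant extended read had C added, at 850 RPM ± 249 (SD, n = 6). Mir221 goes on with AGGCUA, and its most abundant extended read had U added in place of A, at 585 RPM ± 283. Additions were templated in 65.8% of miR-222-3p reads and in 18.9% of miR-221-3p reads, and 77.3% of the miR-221-3p additions had a non-templated tail of U only. Reads with the templated A on miR-221-3p averaged 143.4 RPM.

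In the miR-181 family, known in lymphocytes and in the brain, extended reads of miR-181a-5p were at 920, 944 and 1671 RPM in WT, against 1603, 1792 and 1901 RPM in Tau tg. Only Tau tg 1 lay within the WT range, and the difference of 0.64 ± 0.28 (log2, SE) did not pass (limma adjusted p = 0.701). Its 24-nt and 25-nt forms with U and UU added had 688 RPM ± 192 and 633 RPM ± 219.3 (SD, n = 6), and both follow the hairpins, which go on with UUGGAA and UUGGGA. The extended share was 13.8% ± 5.58 for miR-181a-5p, 15.65% ± 4.362 for miR-181b-5p, 31.7% ± 10.03 for miR-181c-5p and 19.4% ± 11.2 for miR-181d-5p. The mature miR-181b-5p has 24 nt, and 80.7% of its extended reads did not pass the 3′ end, so most carried no added bases. The ranges of miR-181a-5p, miR-181c-5p and miR-181d-5p, 7.67 to 22.9%, 21.8 to 47.2% and 6.81 to 32.5%, overlapped. That of miR-181b-5p, 11.5 to 21.3%, lay just below the range of miR-181c-5p. In each sample, however, miR-181c-5p had the highest share of the 4. The shares of miR-181b-5p, miR-181c-5p and miR-181d-5p were higher in Tau tg without overlap. Over all 151 miRNAs, 12 shares (7.95%) did not overlap, 10 higher and 2 lower in Tau tg. The limma adjusted p of these ratios was 0.811 to 0.852.

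The let-7 family, which restrains proliferation and whose precursors are a known target of TUT4, was abundant but rarely reached 24 nt. Of 10 listed names, 9 were in the table, all with extended reads, and their summed share was 0.951 to 1.72% in WT and 1.26 to 1.90% in Tau tg. The median share of the 9 was 0.807%, against 1.42% over the 156 miRNAs of at least 500 RPM. let-7b-5p stood highest, with 4.63% ± 1.04, followed by let-7e-5p with 2.49% ± 0.793, while let-7f-5p was low with 0.275% ± 0.130 (SD, n = 6). miR-98-5p was lowest, at 0.149%. Only 1.45% of the additions to let-7b-5p followed its hairpin, which goes on with UCAGGG. Of all its additions, 25.8% had a tail of U only, 24.4% of A only and 41.7% of A and U mixed. The read with AU added averaged 384 RPM and the read with UU added 239 RPM. Shorter let-7b-5p reads with a single U averaged 3229 RPM ± 1071 and with a single A 1669 RPM ± 427, both 23 nt. Family members differ by few bases, so reads of 1 member with a mismatch could be named for another.

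miR-26a-5p and miR-26b-5p, known substrates of U addition, had shares of 1.16% ± 0.236 and 0.532% ± 0.617 (SD, n = 6). Of the additions to miR-26a-5p, 2.64% were templated, 45.3% had a tail of A and U mixed and 33.0% of U only. Its mature form has 22 nt, and the 23-nt read with U averaged 1846 RPM ± 440 against 808 RPM ± 206 with A.

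Among 9 miRNAs known as subjects of target-directed degradation, all had extended reads, and 5 had at least 500 RPM. The sum over the list was extended in 11.4 to 14.5% of reads in WT and 11.0 to 12.8% in Tau tg, with miR-30c-5p, miR-221-3p and miR-222-3p carrying most of it. miR-7a-5p, for which the long RNA Cyrano is the known trigger, had a total of only 323 RPM and 46.8% ± 7.31 extended reads, from 36.3% to 52.8%. Of its additions, 94.8% followed the hairpins, which go on with UUUUAG or UGUGUC. miR-7b-5p had 61.1 RPM in all and a mature form of 24 nt, so 98.5% of its extended reads did not pass the end. miR-29b-3p had a share of 4.20% ± 0.678. Its copies go on with CU and with UUAGGA, and the read with U added averaged 295 RPM and the read with A added, which neither hairpin holds, 229 RPM. The related miR-29a-3p and miR-29c-3p had shares of 0.466% and 0.316%. miR-322-5p and miR-503-5p had 1.52 and 3.48 RPM of extended reads.

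The 8 neuron-enriched miRNAs were extended in 1.61 to 1.99% of reads in WT and 1.89 to 2.82% in Tau tg, with miR-138-5p far above the rest. miR-124-3p, the most abundant neuronal miRNA, had 247 extended sequences, an extended level of 931 RPM ± 75.0 and a share of 1.39% ± 0.235 (SD, n = 6). miR-9-5p had a share of 1.28% ± 0.171, and the hairpins go on with G while its main tails were A and U. The share was 1.02% ± 0.228 for miR-9-3p, 0.586% for miR-132-3p and 0.214% for miR-128-3p.

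Across the 156 miRNAs with a mean of at least 500 RPM, the median extended share was 1.42%, 25 were above 10% and 8 had no extended read. The highest shares were those of miR-30c-5p with 41.1%, miR-342-3p with 36.6% ± 3.82, miR-181c-5p with 31.7%, miR-425-5p with 25.7% ± 8.29, miR-770-5p with 25.4% ± 5.72, miR-141-3p with 25.02% ± 11.2, miR-30e-5p with 21.6% and miR-138-5p with 20.6% (SD, n = 6). miR-342-3p, from an intron of Evl at chr12:108658680-108658702, had C added, and 88.2% of its additions followed the hairpin. miR-425-5p had GU added, with 95.2% templated. miR-770-5p, from an exon of the imprinted lincRNA Meg3, and the epithelial miR-141-3p went the other way, with 30.3% and 1.11% templated. The miR-141-3p reads had CA or CU added where the hairpin has CC, and its share ran from 11.5% to 40.7%. Of the abundant extended miRNAs, miR-21a-5p, known from injury and inflammation, had a low share of 3.15% ± 0.478, and its main extended read had CA where the hairpin has CU.

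The 8 miRNAs without an extended read were miR-369-3p, miR-376a-3p, miR-323-3p, miR-376b-5p, miR-376b-3p, miR-154-3p, miR-30e-3p and miR-1983. For miR-369-3p, with 30063 reads pooled over the 6 samples, counting error alone would allow a share of up to 0.00998%. For miR-1983, with 7590 reads, it would allow up to 0.0395%. Rare reads had been removed from the table, so a count of 0 can be a filtered count and the shares may be higher. These limits also leave out the spread between mice. The mature forms of the 8 miRNAs have 21 or 22 nt.

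miR-451a, a red blood cell miRNA that is cut by Ago2 itself without Dicer and then trimmed, was extended in 8.90%, 12.1% and 19.1% of reads in WT and 12.4%, 7.55% and 13.5% in Tau tg. All of its additions followed the hairpin, which goes on with UAGUAA, and the reads with UA, UAG and UAGU added averaged 27.0, 24.5 and 21.7 RPM. The read with UA added was at 103.66 RPM in WT 3 and at 1.67 to 17.6 RPM in the other samples. The groups overlapped, and its extended level did not pass the test (limma adjusted p = 0.955).

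The order of the miRNAs by share was much the same in all samples. Over the 156 miRNAs, the extended shares of any 2 samples correlated with Pearson's r from 0.836 to 0.956 in 15 pairs, with 0.864 to 0.956 within groups and 0.836 to 0.942 between them. These are correlations across miRNAs, which are not independent replicates and share the library of their sample.

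No extended miRNA passed the test between WT and Tau tg after adjustment. In the limma fit of the extended level, 0 of 323 miRNAs (0%) had an adjusted p under 0.05, and 19 (5.88%) had an unadjusted p under 0.05, 17 higher in Tau tg (5.26%) and 2 lower (0.619%). The count tools edgeR and DESeq2 also called 0 of 323 after adjustment, with 15 (4.64%) and 16 (4.95%) unadjusted. For the ratio of extended to shorter reads, which removes the level of the miRNA itself, 0 of 263 miRNAs (0%) passed and 11 (4.18%) had an unadjusted p under 0.05, 9 higher (3.42%) and 2 lower (0.760%). Groups did not overlap in the extended level of 21 of 160 miRNAs found in all samples (13.1%) and in the extended share of 12 of 151 (7.95%). The median log2 difference was 0.27 for the level and 0.19 for the ratio, and the first was 0.14 after median-of-ratios scaling.

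Of 36070 sequences tested with limma, 10 (0.0277%) had an adjusted p under 0.05, with 2 higher in Tau tg (0.00554%) and 8 lower (0.0222%). None of these was among the 2012 extended sequences tested. An unadjusted p under 0.05 was found for 803 (2.23%) in all, with 519 higher (1.44%) and 284 lower (0.787%), and for 56 extended sequences, with 39 higher and 17 lower. The split turned with the count models on recovered reads. Of the same 2012, edgeR gave 33 at an unadjusted p under 0.05 (12 of these higher in Tau tg, 21 lower), against 2470 sequences in all (6.85%), with 412 higher (1.14%) and 2058 lower (5.71%). DESeq2 gave 45, with 18 higher and 27 lower, against 3008 in all (8.34%), with 435 higher (1.21%) and 2573 lower (7.13%). After adjustment edgeR called 0 extended sequences, against 41 in all (0.114%), and DESeq2 called 2, against 316 in all (0.876%). Among the 441 extended sequences found in all 6 samples, groups did not overlap for 49 (11.1%), against 543 of 5832 sequences in all (9.31%). The 24-nt miR-30c-5p read averaged 2908 RPM ± 278 over WT samples and 3773 RPM ± 449 over Tau tg samples (SD, n = 3 each; limma adjusted p = 0.584), and the 24-nt miR-153-3p read had 851 RPM ± 304 and 907 RPM ± 410.

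The lowest p for a level belonged to miR-210-3p, a miRNA induced by low oxygen, which the naming rule reached through its ratio. Its extended reads had 11.2, 42.7 and 55.0 RPM in WT, against 49.1, 278 and 230 RPM in Tau tg, where WT 3 lay above Tau tg 1. The limma adjusted p of this level was 0.498, and 0.0199 without WT 2 or 0.0131 without WT 3. The level did not pass without WT 1, Tau tg 1, Tau tg 2 or Tau tg 3. The share was 2.44%, 7.27% and 2.78% in WT and 9.003%, 19.2% and 12.7% in Tau tg, with no overlap, and the log2 difference of the ratio was 1.93 ± 0.61 (SE; limma adjusted p = 0.811). None of its additions followed the hairpin, which goes on with UCUGUC. The printed read with AU added was at 0, 0 and 0.917 RPM in WT, against 7.26, 44.3 and 20.9 RPM in Tau tg (limma adjusted p = 0.305). Total miR-210-3p overlapped between the groups, at 461 to 1980 RPM in WT, against 545 to 1811 RPM in Tau tg.

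Of the 21 levels without overlap (13.1% of 160), 18 were higher and 3 lower in Tau tg. Of all sequences found in 6 samples, 543 (9.31%) did not overlap, 342 higher and 201 lower. The rule for named miRNAs gave miR-218-5p, miR-181d-5p and miR-666-3p among the higher levels and miR-182-5p, miR-200b-3p and miR-9-3p as the lower ones. The motor neuron and brain miRNA miR-218-5p had 134, 57.6 and 66.0 RPM in WT, against 165, 244 and 212 RPM in Tau tg, a log2 difference of 1.34 ± 0.48 (SE; limma adjusted p = 0.701). Its main extended read had GGU added, as in the Mir218-2 hairpin in an intron of Slit3, where Mir218-1 has GCU. miR-181d-5p had 94.2, 25.7 and 50.5 RPM in WT, against 115, 192 and 126.02 RPM in Tau tg (adjusted p = 0.701), while its total overlapped, at 378 to 629 and 388 to 600 RPM. miR-666-3p had 89.0, 97.6 and 119 RPM in WT, against 157, 381 and 213 RPM in Tau tg (adjusted p = 0.701).

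miR-182-5p, known from sensory cells, had 96.0, 150 and 196 RPM in WT, against 35.9, 72.8 and 40.9 RPM in Tau tg, a log2 difference of -1.55 ± 0.54 (SE; limma adjusted p = 0.701). Its mature form has 25 nt, and 86.7% of its extended reads did not pass the 3′ end, so most carried no added bases. The full mature read was at 16.4, 52.2 and 98.2 RPM in WT, against 9.39, 4.18 and 1.23 RPM for Tau tg (limma adjusted p = 0.352). Its total had 192 to 715 RPM in WT, against 49.5 to 147 RPM in Tau tg. The extended share of miR-182-5p averaged 33.9% ± 14.1 in WT and 55.2% ± 25.03 in Tau tg (SD, n = 3 each), with overlap. The log2 difference of its ratio was 1.39 ± 0.87 (SE; limma adjusted p = 0.852). Unlike the level, the ratio was thus not lower in Tau tg. The epithelial miR-200b-3p had 20.6, 69.1 and 67.0 RPM in WT, against 17.9, 5.85 and 13.1 RPM in Tau tg, with totals of 459 to 1493 and 178 to 275 RPM. Its shares overlapped, at 4.48 to 8.40% in WT and 2.13 to 7.37% in Tau tg. The log2 difference of its ratio was -0.15 ± 0.63 (SE, limma adjusted p = 0.966). miR-9-3p differed by a log2 of -0.34 ± 0.49 (adjusted p = 0.955). The 4 epithelial markers were miR-204-5p, miR-200a-3p, miR-200b-3p and miR-429-3p, and all 4 were detected. Their summed level ran from 3410 to 11290 RPM in WT and from 3244 to 9496 RPM in Tau tg. Most of it came from the first 2, with means of 3710 and 1703 RPM, against 584 and 473 RPM for the others. Their extended levels split, with log2 differences of 0.46, 0.22, -1.94 and -2.20 in the same order, none passing after adjustment. The part of epithelial cells in the miR-182-5p and miR-200b-3p values was not tested. In bulk tissue, fewer cells of a type and less RNA per cell cannot be told apart.

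Ratios without overlap on few reads were those of miR-379-5p and miR-344-3p, at 0 to 0.468 RPM of extended reads in WT and 3.84 to 11.7 RPM in Tau tg, both near the level of a few reads in WT. In the other direction, miR-3059-5p, miR-378a-3p and miR-199a-3p with miR-199b-3p (one name in the table) had extended shares of 1.89 to 9.43%, 2.97 to 5.76% and 0.738 to 0.850% in WT and 0 to 1.86%, 0.411 to 2.32% and 0.261 to 0.503% in Tau tg. The miR-3059-5p shares also rested on few reads. Its extended level was 4.22 RPM (WT 1), 10.2 (WT 2), 0.917 (WT 3), 2.70 (Tau tg 1), 0 (Tau tg 2) and 0.409 (Tau tg 3). The WT 3 and Tau tg 3 levels are each worth 1 read. Its groups were separated only by 1.886% (WT 3) over 1.862% (Tau tg 1), so the lack of overlap hung on that WT 3 read. The limma adjusted p of the 5 ratios in this paragraph was 0.811 to 0.877.

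By list, none of the levels passed after adjustment. Of the let-7 names, 6 of 9 had a higher extended level in Tau tg, with a median log2 difference of 0.52, and of the neuron-enriched names 6 of 8, with 0.55. Of the 9 names under target-directed degradation 6 were higher, with a median of 0.20, and both miR-26 names, with 0.41. Over all 323 miRNAs, 199 were higher and the median was 0.27. In the ratio to shorter reads, 5 of 9 let-7 names and 7 of 8 neuron-enriched names were higher. So were 3 of 8 names under target-directed degradation and 1 of 2 miR-26 names. Over all 263 miRNAs tested for the ratio, 152 were higher.

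No measure of the 3′ end passed the test between WT and Tau tg. Additions followed the hairpin in 60.5%, 61.3% and 56.0% of WT reads and 62.9%, 54.1% and 58.1% of Tau tg reads. Non-templated tails of A only were 33.0%, 33.9% and 38.1% in WT and 30.1%, 31.9% and 32.4% in Tau tg, which did not overlap. The means were 35.0% ± 2.71 and 31.5% ± 1.19 (SD, n = 3; exact permutation test, p = 0.1, the smallest it can give, and adjusted p = 0.56 over 7 measures). Tails of U only were 39.3% ± 3.16 in WT and 41.7% ± 2.53 in Tau tg, with overlap. Reads past the 3′ end were 87.9% ± 0.619 and 90.1% ± 1.55 of extended reads (exact permutation test, p = 0.2). Reads with the seed of the mature miRNA were 89.6% ± 1.18 and 90.6% ± 1.29.

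Compared with the shorter miRNA reads of the same sample, extended reads ended in U more often. They did so in 67.3% ± 3.49 against 48.0% ± 2.48 of reads (SD, n = 6), higher in 6 of 6 samples by 16.9 to 23.1 percentage points (exact sign-flip permutation test, adjusted p = 0.0417 over 4 measures, from the smallest p that 6 samples can give). With the shorter reads weighted to the same mix of miRNAs, the difference was 31.8 ± 4.03 percentage points. Counting extended reads from 23 nt, the unweighted difference turned to -6.32 percentage points, with the smallest p that 6 samples can give in an exact test. The share ending in A was 21.7% ± 2.61 against 21.6% ± 1.54, higher in 3 of 6 samples (exact permutation test, p = 0.875). Extended reads began at the first base of the mature miRNA less often, in 90.2% ± 1.21 against 92.5% ± 0.323, lower in 6 of 6 samples (exact permutation test, adjusted p = 0.0417). This too turned when counting from 23 nt, to 2.34 percentage points more often, again with the smallest p of the exact test. The choice by length itself takes in reads that start early, since an earlier start makes a read longer. Among RefSeq-placed extended reads, 5.22% were longer at the 5′ end only. The test of first-base starts therefore cannot tell a trait of these reads from the choice by length. A read that is longer at the 5′ end has its seed moved, which changes the mRNAs it can pair with.

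Each 6mer seed carries a viability score, the survival of cells given a short RNA with that seed as a percentage of control, and a low score marks a toxic seed. Its weighted mean was 64.4 ± 1.07 for extended and 57.9 ± 1.003 for shorter reads (SD, n = 6), higher in 6 of 6 samples by 6.58 ± 0.876 (exact permutation test, adjusted p = 0.0417). With the same mix of miRNAs this difference turned to -0.238 ± 0.144, lower in 6 of 6 samples (exact permutation test, adjusted p = 0.0417). Of the seeds that led the extended reads, that of miR-30 had a viability of 76.4 and that of miR-181 86.7, and that of miR-138-5p 34.5. Extended reads with a seed viability under 50% were 17.7% ± 2.30 in WT and 19.5% ± 1.15 in Tau tg (SD, n = 3; exact permutation test, p = 0.5).

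The 6 libraries held 998248 (WT 3) to 6879551 (Tau tg 1) reads, and 441 extended sequences were found in all 6 samples and 2136 in 1 only. Neuron markers (miR-124-3p, miR-9-5p and miR-128-3p) summed to 134300 to 142180 RPM in WT, against 129100 to 152340 RPM in Tau tg, and all 3 were detected. Markers of oligodendrocytes, immune, vascular and red blood cells were also present, with overlap between the groups in each summed level.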

How the data were processed

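Ago-bound short RNAs of 3 WT and 3 Tau tg mice were measured. With the SPOROS pipeline the authors demultiplexed and trimmed the reads (the submitters' processing notes name Trim Galore), compiled unique sequences, removed rare reads and artificial sequences, and named miRNAs by BLAST. Trimming settings, which can shift a 3′ end, are not given in the sources used here. The deposited values are RPM, scaled by the authors. The deposited viability score, a percentage of control a mean of 3 murine cell lines, was taken unchanged. Whole read counts were recovered from the deposited RPM steps for 99.98% of values (within 0.05 reads), at 998248 to 6879551 reads per sample. Of 109434 rows, 44347 at 0 in all samples were left out.

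Reads were placed without gaps on RefSeq mature miRNAs (GRCm38.p6) with at most 1 mismatch and a start within 5 bases. Of the 4532 sequences, 3838 had a RefSeq mature sequence, 691 used the most abundant read of 18 to 23 nt in its place and 3 had neither; 4417 were placed. Templated shares use RefSeq hairpins only. Gene positions come from GENCODE M21.

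Samples were compared with exact two-sided permutation tests over 20 assignments, and extended with shorter reads by exact sign flips over 64 patterns. For levels, ratios and sequences, limma 3.58.1 (trend on) was run on log2(RPM + 1), which understates the change of low values, at a mean of at least 1 RPM (ratios also at least 50 RPM in total). Benjamini-Hochberg adjustment was over all features tested. Count models on recovered reads, edgeR 4.0.16 and DESeq2 1.42.0 with library sizes as scaling, were alternatives, beside other length limits, pseudocounts, filters, scaling, fits blocked by replicate number and fits without 1 sample. The limma step was tested on simulated reads only for large changes in features well above the 1 RPM filter. Its power for low levels and small changes was not tested. The scripts ran under Python 3.11.15 (SciPy 1.17.1, pandas 2.3.3, NumPy 2.4.6) and R 4.3.3.

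Members and lists were chosen with earlier results of these data known. miRNAs were named by a rule: the 10 highest extended levels, the 8 highest and 5 lowest shares at 500 RPM or more, those passing a test, up to 3 each way with the lowest p and no group overlap, and miR-451a, beside the lists and the 12 most abundant extended sequences. The other sequences shown, miR-7a-5p and other paralogs were added after their values were seen. The labels do not say whether replicates pair. The deviations of same-numbered samples correlated with r of -0.00201, -0.0692 and 0.0413 over all miRNAs and 0.144, 4.42e-05 and 0.00857 over extended levels, not over 0.1 in every pair, so samples were treated as unpaired. Samples of 1 group differed beyond sampling noise.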

Additional observations from a re-analysis of the deposited data

How the results depend on the processing

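The extended share kept its direction under other length limits (0.421 at 23 nt, 0.0415 at 25 nt), with each miRNA weighted equally (0.583) and with at least 2 bases past the end (0.115 percentage points), and turned to -0.0692 with at least 1 base past the end. Without 1 sample it ran from 0.119 to 0.481. Of the 3′ end measures, at 23 nt or more reads past the end gave -0.715, A-only tails 0.421 and U-only tails -0.379 percentage points. At 25 nt or more templated additions gave 0.803, and with each sequence counted once first-base starts gave -1.50, reads past the end -0.855, U-only tails -1.45 and the mature seed -1.58. Without 1 sample, templated additions ran from -3.14 to 1.26 (0.134 without WT 2, 1.26 without Tau tg 2). The cause was not tested. The other 3′ measures kept their direction without each sample.

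Extended minus shorter reads ran without 1 sample from 6.25 to 6.73 for viability, from -2.54 to -2.02 for first-base starts, from 18.7 to 19.9 for ends in U and from -0.492 to 0.599 for ends in A, and 5 samples cannot reach an adjusted p under 0.05 here (0.0833). Counting from 23 nt, first-base starts turned to 2.34, ends in U to -6.32, and ends in A were 9.24, each with the smallest p that 6 samples can give. From 25 nt, ends in A were -1.72. With the same mix of miRNAs, an alternative chosen after seeing the data, viability was -0.238 and ends in A -0.255.

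Adjusted calls of levels ran from 0 to 3 without 1 sample: let-7b-5p, miR-107-3p and miR-92b-3p without WT 1 and miR-210-3p without WT 2 (adjusted p = 0.0199, limma) and without WT 3 (0.0131), all higher in Tau tg. DESeq2 called 2 of 2012 extended sequences (316 of 36070 in all, 0.876%) and edgeR 0 (41 in all, 0.114%); the 2 were miR-210-3p with AU added and a miR-132-3p read found in WT 3 alone (46.8 RPM). Unadjusted counts without 1 sample ran from 10 of 310 levels (3.23%) to 27 of 300 (9%). For ratios they ran from 7 of 256 (2.73%) to 25 of 244 (10.2%). For extended sequences they ran from 27 of 1936 (1.39%, in all 1.55%) to 69 of 1857 (3.72%, in all 2.86%). Levels gave 9 of 154 at a mean of at least 10 RPM (5.84%, against 5.88% in the main fit). They gave 9 of 323 without trend (2.79%) and 9 of 180 from 25 nt (5%). Ratios gave 17 of 263 with a pseudocount of 5 (6.46%) and 7 of 152 at 10 RPM (4.61%), against 4.18% in the main fit. Of 2012 sequences, 24 passed with a pseudocount of 5 (1.19%, as over all sequences), 37 without trend (1.84%, in all 1.64%) and 33 by edgeR (1.64%, in all 6.85%); at 10 RPM fewer were tested, and 11 of 290 passed (3.79%, in all 4.28%). The replicate block gave 0 adjusted calls among extended reads in each fit. Unadjusted, it gave 20 of 323 levels (6.19%), 12 of 263 ratios (4.56%) and 52 of 2012 sequences (2.58%, in all 2.24%). The share differed by 0.242 percentage points (exact sign-flip permutation test, p = 0.5), and the numbers do not pair the samples. The 6 levels and 6 ratios named for a low p without overlap kept their direction in each alternative run, and the other named miRNAs were not recomputed one by one. Depth limits single sequences: 1 read was worth 0.142 (Tau tg 1) to 0.917 RPM (WT 3).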
